A study of Homo sapiens with 13 samples.

Results

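The RNA recovered with eIF4G from U2OS cells given rapamycin was compared over all genes with the RNA recovered from cells not given the drug. The comparison uses 5 of the 13 libraries of the study, 2 immunoprecipitation (IP) libraries labelled control siRNA with rapamycin and 3 labelled control siRNA with mock, and the libraries were chosen by these labels alone. U2OS is an established human osteosarcoma line. All 5 libraries come from cells with the control siRNA for 48 h, and the rapamycin cells had 50 ng/ml of the drug for 24 h. Total RNA of rapamycin cells (2 libraries) and of control cells (2 libraries) shows the change in the cells themselves, and IP and total RNA of cells with an siRNA against the kinase CDK12 and no rapamycin (2 libraries each) serve as a further reference. Of 26454 genes in the table, 9908 reached 1 FPKM (reads per kilobase of gene, scaled to the size of the library) in at least 2 libraries of the study and were tested.

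eIF4G is the scaffold of the cap-binding complex eIF4F, in which it holds the cap-binding protein eIF4E and the helicase eIF4A and, through eIF3, brings the small ribosomal subunit to a capped mRNA. Rapamycin, bound to the immunophilin FKBP12, inhibits the kinase complex mTORC1, which phosphorylates the 4E-binding proteins. In their unphosphorylated form these proteins take eIF4E away from eIF4G. Translation of the TOP mRNAs, which begin with a C and a run of pyrimidines and encode ribosomal proteins and elongation factors, is known to depend strongly on mTORC1.

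Library sizes were not read as counts but estimated from the steps between low deposited FPKM values. The estimates were 12874349, 22995669 and 18293750 tags in the control IP and 19903788 and 18852037 in the rapamycin IP. Levels are deposited FPKM over whole gene bodies, introns included, and each change is a log2 ratio with its SE, fitted by limma to scaled log2(FPKM + 1), which understates the change of low genes. Scaling divided the control IP libraries by 0.869, 0.893 and 0.907 and the rapamycin IP libraries by 1.09 and 1.12, so log2 changes lie below what the deposited levels give. A gene was called at an adjusted p under 0.05, and the median of a gene group is printed after subtraction of that of all tested genes (-0.05 in the IP), and called its relative median. Values are shares of the RNA recovered and not amounts, and in bulk lysates fewer cells and less RNA per cell cannot be told apart. Without a mock IP, bound RNA cannot be told from background. In their titles the rapamycin libraries have another date code than all the rest, so date and drug cannot be told apart. The labels do not call the replicates separate cultures, so a p-value here measures only spread between libraries, which may be technical. Genes that overlap another gene are uncertain, since whether the counting used strand is not stated. Among the genes named below these are ATG2A, CALR, EEF1A1, EEF2, EIF4A1, EIF4E2, EIF4G1, EIF4G2, EIF4G3, FKBP1A, HSF1, MTOR, NPC1, ODC1, PABPC1, PAIP2, PCNA, PSMC2, RPL23, RPS25, RPS3, SCARNA7, SNHG6, SNORD54, TPT1, TXNIP, VIM and all the microRNA genes except MIR6087. Ribosomal protein and histone genes have near copies elsewhere in the genome, which may share their reads. Cell identity was checked on marker lists, of which 12 of 15 mesenchymal and osteosarcoma members, 4 of 12 epithelial, 1 of 15 striated muscle and 0 of 14 haematopoietic members were tested. The intermediate filament gene VIM stood at 208, 200 and 199 FPKM in the control IP and at 163 and 135 in the rapamycin IP, and the 14 haematopoietic markers summed to at most 0.986 FPKM in any of these 5 libraries.

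The annotated starts of 11 genes are shown because they set TOP mRNAs that fell in the rapamycin IP beside TOP mRNAs that rose and genes with no TOP start. Each line gives 8 bases before the start and the first 20 bases of the transcript from RefSeq (GRCh38.p14), and capitals mark the unbroken run of C and T at a start that begins with C and at least 4 further pyrimidines. RPL26 (chr17:8383174-8383201, minus strand), RPS6 (chr9:19380217-19380244, minus), RPS24 (chr10:78033855-78033882, plus), RPS3 (chr11:75399510-75399537, plus), EEF1A1 (chr6:73521013-73521040, minus) and TPT1 (chr13:45341164-45341191, minus) fell. RPLP0 (chr12:120201092-120201119, minus), RPS16 (chr19:39435930-39435957, minus) and EEF2 (chr19:3985444-3985471, minus) rose. MRPL51 (chr12:6493243-6493270, minus), which fell, and GAPDH (chr12:6535256-6535283, plus), which rose, have no TOP start.
RPL26: gtgtagttCTCTTCCCTTTTgcggccat
RPS6: agttggccCTCTTTTCCgtggcgcctcg
RPS24: tcgtggttCTCTTTTCCTCCTTggctgt
RPS3: agccacttCCTTTCCTTTCagcggagcg
EEF1A1: tgaacgttCTTTTTCgcaacgggtttgc
TPT1: gagtcggcCTTTTCCgcccgctcccccc
RPLP0: cgcgaggcCCTTCTCTCgccaggcgtcc
RPS16: ctagctttCCTTTTCCggttgcggcgcc
EEF2: tcagcgttCTCTTCCgccgtcgtcgccg
MRPL51: gtgcgcccacagctgcctgggtaaggcc
GAPDH: gcatccctgtccggatgctgcgcctgcg

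With rapamycin, mRNAs of the mitochondrial ribosome, the respiratory chain, the proteasome, the spliceosome and the chaperones fell in the eIF4G IP, together with many but not all mRNAs of the cytosolic ribosome. In the small ribosomal subunit falls were no more frequent than among all genes. Rises included the mRNA of the actin crosslinker FLNA and some nuclear noncoding RNAs such as MALAT1, whereas no small nuclear RNA (snRNA) gene was called higher. In all, 7184 of 9908 genes (72.5%) were called by limma, 3195 higher (32.2%) and 3989 lower (40.3%). The counts of each gene group below are to be read beside these shares. At least 2-fold, 1503 genes (15.2%) fell and 466 (4.70%) rose, against 1042 and 746 without scaling, 613 and 613 with quantile normalization, 1064 and 784 with the trend on gene length removed and 938 and 661 with factors taken over genes with a mean of at least 1 FPKM. The split of all calls depends on the scaling too. It was 4235 higher and 3106 lower without scaling (median 0.12), 3512 and 3239 with quantile normalization (median 0.04), 4146 and 3289 with the length trend removed (median 0.08), and 4301 and 3003 with the factors over genes of at least 1 FPKM (median 0.13). Of the 2128 genes with a mean of at least 5 FPKM, 1362 fell and 354 rose, around a median of -0.75. That mean includes the control IP, where these genes stood high (a median of 1.67 for control IP over total RNA), so the choice of genes partly sets this fall, and in total RNA 659 of them rose and 136 fell. In deposited FPKM, both rapamycin libraries lay above all controls for 47.3% of the tested genes and below all of them for 35.0%.

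**Figure D1:**
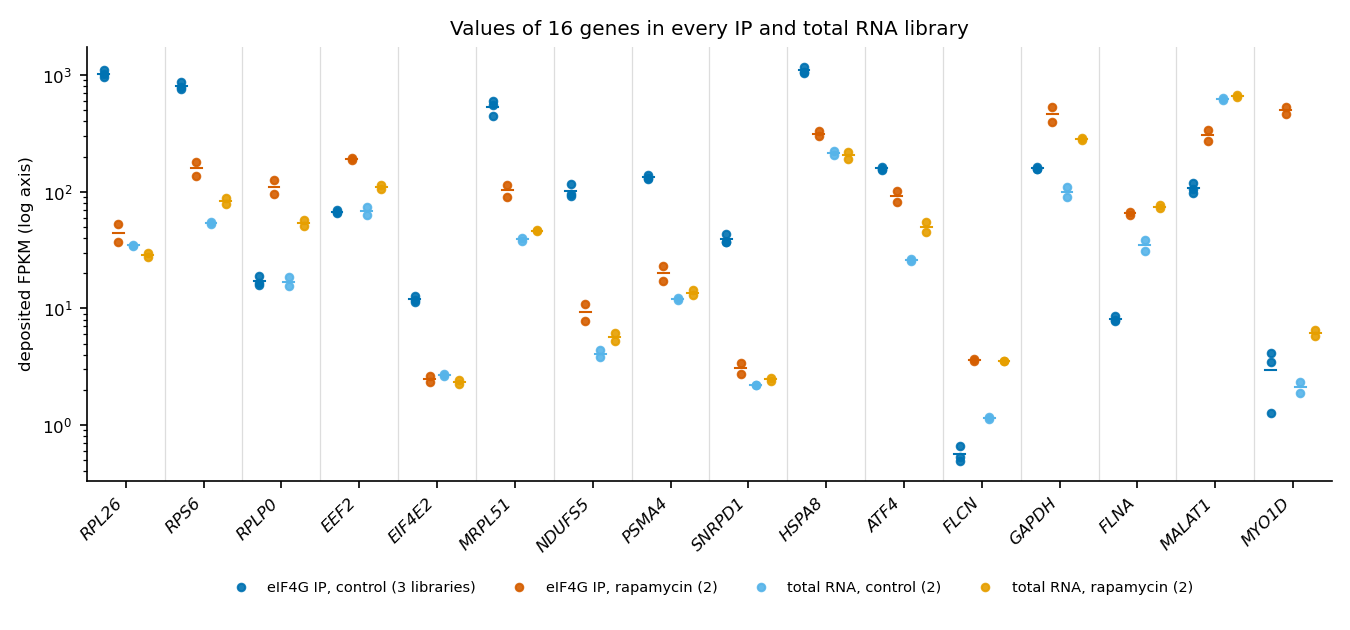
Deposited FPKM (log axis) of 16 genes in each control and rapamycin library of the IP and of total RNA, with a short line at each group mean. RPL26 stood at 968 to 1103 FPKM in the control IP and at 36.8 and 52.4 in the rapamycin IP, beside 27.7 to 34.9 in total RNA.

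The largest fall was that of RPL26, which encodes a protein of the large ribosomal subunit. It measured 1103, 968 and 1023 FPKM in the control IP and 52.4 and 36.8 in the rapamycin IP. Every control library was above both rapamycin libraries, and the change was -4.83 ± 0.25 (limma adjusted p = 3.13e-07). Its total RNA, at 34.9 and 34.5 FPKM in control and 29.9 and 27.7 in rapamycin cells, did not pass the test (-0.51 ± 0.27, limma adjusted p = 0.17). UQCRB, a subunit of respiratory complex III, measured 194, 203 and 192 FPKM in the control IP and 9.08 and 7.43 in the rapamycin IP. The groups did not overlap and the change was -4.72 ± 0.22. The other large falls were RPL36AL (-4.70 ± 0.21), a paralogue of a large-subunit protein, RPS25 (-4.53 ± 0.47), of the small subunit, the transcription factor KLF17 (-4.34 ± 0.42), the acyl-CoA binding protein DBI (-4.16 ± 0.15), the signal recognition particle subunit SRP19 (-4.03 ± 0.25), the tumour antigen gene PAGE2 (-4.03 ± 0.31), the transcriptional coactivator SUB1 (-3.95 ± 0.16) and the mitochondrial ribosomal protein MRPS17 (-3.88 ± 0.23). Of these 10 genes only UQCRB and MRPS17 also passed in total RNA, where they fell by 0.75 and 1.26.

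Among the components of eIF4F, the mRNAs of the scaffold did not fall with the rest. EIF4G1 measured 10.7, 11.9 and 11.8 FPKM in the control IP and 13 and 14.7 in the rapamycin IP. In total RNA it changed by -0.43 ± 0.12 (limma adjusted p = 0.0193). Its deposited IP levels did not overlap, yet after scaling the IP change was -0.04 ± 0.11 (limma adjusted p = 0.752), and quantile normalization gave 0.58. EIF4G2, the relative of eIF4G that lacks the eIF4E site, did not pass either (0.12 ± 0.12, limma adjusted p = 0.409), though 4 of 17 alternatives called it higher, among them no scaling (0.43) and quantile normalization (1.08), and EIF4G3 rose by 0.19 ± 0.05, a call lost without rapamycin IP replicate 2 (0.13) and with quantile normalization (0.10), and turned by removal of the length trend (-0.09). EIF4E measured 1.49, 1.56 and 1.46 FPKM in the control IP and 0.558 and 0.484 in the rapamycin IP. No rapamycin library reached the range of the controls and it fell by 0.87 on the log2 scale (limma adjusted p = 7.08e-07), while in total RNA it fell by 0.45. EIF4E2, a cap-binding relative that does not bind eIF4G, stood at 12.7, 11.8 and 11.4 FPKM in the control IP and at 2.64 and 2.32 with rapamycin, which is close to its total RNA of 2.75 and 2.62 in control and 2.43 and 2.27 in rapamycin cells. Its IP change was -2.15 ± 0.09. The helicase EIF4A1 fell (-1.20 ± 0.15), as did PABPC1, the poly(A)-binding protein that contacts eIF4G (-0.89 ± 0.19), and its inhibitor PAIP2 (-1.42 ± 0.08). PABPC1 also fell in total RNA (-1.19 ± 0.21). The difference of its change between IP and total RNA did not pass (0.29 ± 0.29, limma adjusted p = 0.400). EIF4A1 did not pass in total RNA (0.30 ± 0.16, limma adjusted p = 0.171). With quantile normalization EIF4A1 was no longer called in the IP (-0.12), and PABPC1 turned to 0.14. Of the 4E-binding proteins, EIF4EBP2 rose by 0.36 ± 0.08 and EIF4EBP1 did not pass (0.19 ± 0.08, limma adjusted p = 0.0634), though 7 of 17 alternatives called it higher, among them no scaling (0.38) and leaving out rapamycin IP replicate 2 (0.31) or control IP replicate 1 (0.22). Of 19 tested genes of this complex, 4 rose and 11 fell, around a relative median of -0.19, which quantile normalization turned to 0.06.

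The other initiation factors, which place the initiator tRNA and the small subunit, moved down more often than up. Of 32 tested, 20 fell and 5 rose, with a relative median of -0.45 in the IP and 0.05 in total RNA. At a mean of at least 5 FPKM the relative IP median was 0.21, but there it is set against a median of -0.75. EIF3E, a subunit of eIF3, measured 53.4, 56.8 and 49.2 FPKM in the control IP and 10.8 and 8.69 in the rapamycin IP. The groups did not overlap and the change was -2.63 ± 0.15, against -0.25 ± 0.16 in total RNA. EIF2S1, the alpha subunit of eIF2, fell as well (-1.44 ± 0.11), and EIF1, the most abundant of the list, did not pass (0.23 ± 0.18, limma adjusted p = 0.272), though 5 of 18 alternatives called it higher, among them no scaling (0.54), quantile normalization (1.14) and leaving out rapamycin IP replicate 2 (0.56). Among aminoacyl-tRNA synthetases, which charge tRNAs, 12 of 22 fell and 5 rose (relative median -0.28, turned to 0.04 by quantile normalization). TARS, for threonine, fell by 1.54, and AARS, for alanine, rose by 0.83 ± 0.06.

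Ribosomal protein mRNAs moved in both directions. Of 47 tested members of the large subunit, 26 fell and 8 rose in the IP (55.3% and 17.0%, against 40.3% and 32.2% of all genes), with changes from -4.83 to 2.30. Of 30 members of the small subunit, 12 fell and 5 rose, from -4.53 to 1.56. In total RNA 37 of the 77 rose and 0 fell, where 20.4% of all genes rose and 16.2% fell. Summed over the 79 members with a value, tested or not, the level was between 9675 and 11281 FPKM in the control IP. It was 3841 and 5230 in the rapamycin IP, and it rose in total RNA from 1301 and 1362 to 2485 and 2727. RPS6, the small-subunit protein that S6 kinase phosphorylates, stood at 875, 798 and 760 FPKM in the control IP and at 180 and 137 in the rapamycin IP. All control libraries were above both rapamycin libraries, and RPS6 changed by -2.67 ± 0.16 (limma adjusted p = 5.93e-07). RPL23 (-3.67 ± 0.17), RPL11 (-2.95 ± 0.14), RPS24 (-2.51 ± 0.14) and RPS3 (-2.50 ± 0.14) fell too, and none of these 5 passed in total RNA.

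Some ribosomal protein mRNAs rose instead, and the 3 named here were chosen after their values were seen. RPLP0, a stalk protein of the large subunit, measured 18.9, 16.6 and 15.9 FPKM in the control IP and 125 and 95.3 in the rapamycin IP. The ranges were separate and the change was 2.30 ± 0.22 (limma adjusted p = 1.12e-05), beside 1.36 ± 0.24 in total RNA. RPLP1, its partner in the stalk, rose by 1.86 ± 0.25 and RPS16, of the small subunit, by 1.56 ± 0.35. RPL26 had been far above its total RNA level in control cells, at 968 to 1103 FPKM in the IP against 34.5 and 34.9 in total RNA, whereas RPLP0 stood at 17.1 ± 1.57 in the control IP (SD, n = 3) and 17.0 in total RNA. The same control IP libraries are the reference of the rapamycin change, so a high control IP value by itself lowers that change. These genes were picked as extremes, and no relation was tested on them. Relative to all tested genes the median of the 77 was -0.52 in the IP and 0.64 in total RNA. Quantile normalization turned the IP median to 0.13, with 30 rises and 26 falls, and set against the other genes with a mean of at least 5 FPKM it was 0.17.

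Other TOP mRNAs also moved in both directions. Of 24 tested elongation factors and other mRNAs known for this start, 14 fell and 6 rose in the IP, with a relative median of -0.54 that quantile normalization turned to 0.17. EEF1A1, which delivers tRNAs to the ribosome, measured 247, 248 and 213 FPKM in the control IP and 128 and 102 in the rapamycin IP. The groups did not overlap and it changed by -1.35 ± 0.16 in the IP and by 0.54 ± 0.17 in total RNA, and quantile normalization ended the IP call (-0.39). EEF2, the translocation factor, measured 65.2, 67.3 and 69.4 FPKM in the control IP and 195 and 189 in the rapamycin IP. It was higher in both rapamycin libraries than in any control, by 1.19 ± 0.10 (limma adjusted p = 3.46e-06). BTF3, a subunit of the nascent chain complex, fell by 1.88. TPT1, the tumour protein TCTP, was at 132, 119 and 123 FPKM in the control IP and at 111 and 83.6 in the rapamycin IP. Its groups did not overlap, and its change of -0.68 ± 0.14 was turned to 0.28 by quantile normalization.

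The starts shown above were then set beside the calls. The rule, a C and at least 4 further pyrimidines on the transcribed strand from the first annotated base, was met by 4.07% of 35116 RefSeq starts. Of 7421 tested genes matched to a RefSeq start (6980 by symbol and 441 by synonym), 592 (7.98%) had a start of this kind. In the IP 259 of the 592 fell (43.8%) and 203 rose (34.3%), around a relative median of -0.07. Of the 6829 genes without such a start 2951 fell (43.2%) and 2174 rose (31.8%), around -0.04. Ribosomal protein genes with a TOP start, 47 in number, had 23 falls and 8 rises (relative median -0.52), and the 15 without one had 7 falls and 0 rises (-0.42). The remaining 531 TOP-start genes had 228 falls and 190 rises (-0.03). RPL26 and RPLP0, at opposite ends of the ribosomal proteins, both carry the start. The difference between genes with and without it was not tested. A match is a description of the annotated start and not a tested element.

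Components and regulators of mTORC1 rose about as often as they fell. Of 33 tested, 15 rose and 12 fell in the IP (45.5% and 36.4%, against 32.2% and 40.3% of all genes, relative median 0.29). In total RNA 14 rose and 2 fell. FLCN, the GTPase-activating protein that controls mTORC1 at the lysosome, measured 0.666, 0.489 and 0.532 FPKM in the control IP and 3.72 and 3.57 in the rapamycin IP. Control and rapamycin libraries did not overlap, and it rose by 1.40 ± 0.07 in the IP and 0.88 ± 0.08 in total RNA. RRAGC, a Rag GTPase that recruits mTORC1 to the lysosome, rose by the same amount in both fractions (0.96 ± 0.07 each). RRAGA rose in total RNA (1.01 ± 0.17) and did not pass in the IP (0.32 ± 0.15, limma adjusted p = 0.0876), though 6 of 18 alternatives called it there too, among them no scaling (0.62) and leaving out rapamycin IP replicate 2 (0.48). MTOR, the kinase itself, measured 0.211, 0.175 and 0.196 FPKM in the control IP and 0.783 and 0.831 in the rapamycin IP, a rise of 0.51 ± 0.04 with no overlap. RPS6KB1, the S6 kinase, fell by 0.55, and FKBP4, an immunophilin of the Hsp90 complex, by 1.46. FKBP1A, which encodes FKBP12, changed by -0.38 ± 0.10, a call lost without scaling (-0.13), with quantile normalization (-0.08), with the length trend removed (-0.12), with factors over genes with a mean of at least 1 FPKM (-0.10) and without rapamycin IP replicate 2 (-0.26). RPTOR did not reach the filter.

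Of 46 lysosome and autophagy mRNAs tested, 23 rose and 13 fell in the IP (relative median 0.30), and 33 rose and 0 fell in total RNA (0.50). Relative to total RNA 23 were lower in the IP and 7 higher. NPC1, the lysosomal cholesterol exporter, measured 0.371, 0.428 and 0.452 FPKM in the control IP and 2.41 and 2.50 in the rapamycin IP. It was higher in both rapamycin libraries than in any control, by 1.13 ± 0.04 (limma adjusted p = 1.09e-07). ATG2A, a lipid transfer protein of the growing autophagosome, rose by 0.94 ± 0.06. CTSL, a lysosomal protease, went the other way, from 289, 295 and 267 FPKM to 40.8 and 33.6, with no overlap and a change of -3.21 ± 0.21 in the IP against 0.02 ± 0.23 in total RNA.

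Targets of ATF4, which activates genes of amino acid supply, rose in the IP in 13 of 24 cases and fell in 9 (relative median 0.28). These shares of 54.2% and 37.5% stand against 32.2% and 40.3% of all genes. SLC1A5, a glutamine transporter, measured 2.25, 2.32 and 2.28 FPKM in the control IP and 12.2 and 11.8 in the rapamycin IP. Its rapamycin values lay far above all controls, with a change of 1.73 ± 0.10 in the IP and 0.37 ± 0.11 in total RNA. PHGDH, the first enzyme of serine synthesis, rose by 1.48 ± 0.07. ATF4 itself was at 153, 157 and 164 FPKM in the control IP and at 102 and 82.3 in the rapamycin IP. It fell with no overlap by 1.10, while its total RNA rose from 25.2 and 26.3 to 55.2 and 45.4 FPKM (0.68 ± 0.14), and quantile normalization ended the call in the IP (-0.15).

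**Figure D2:**
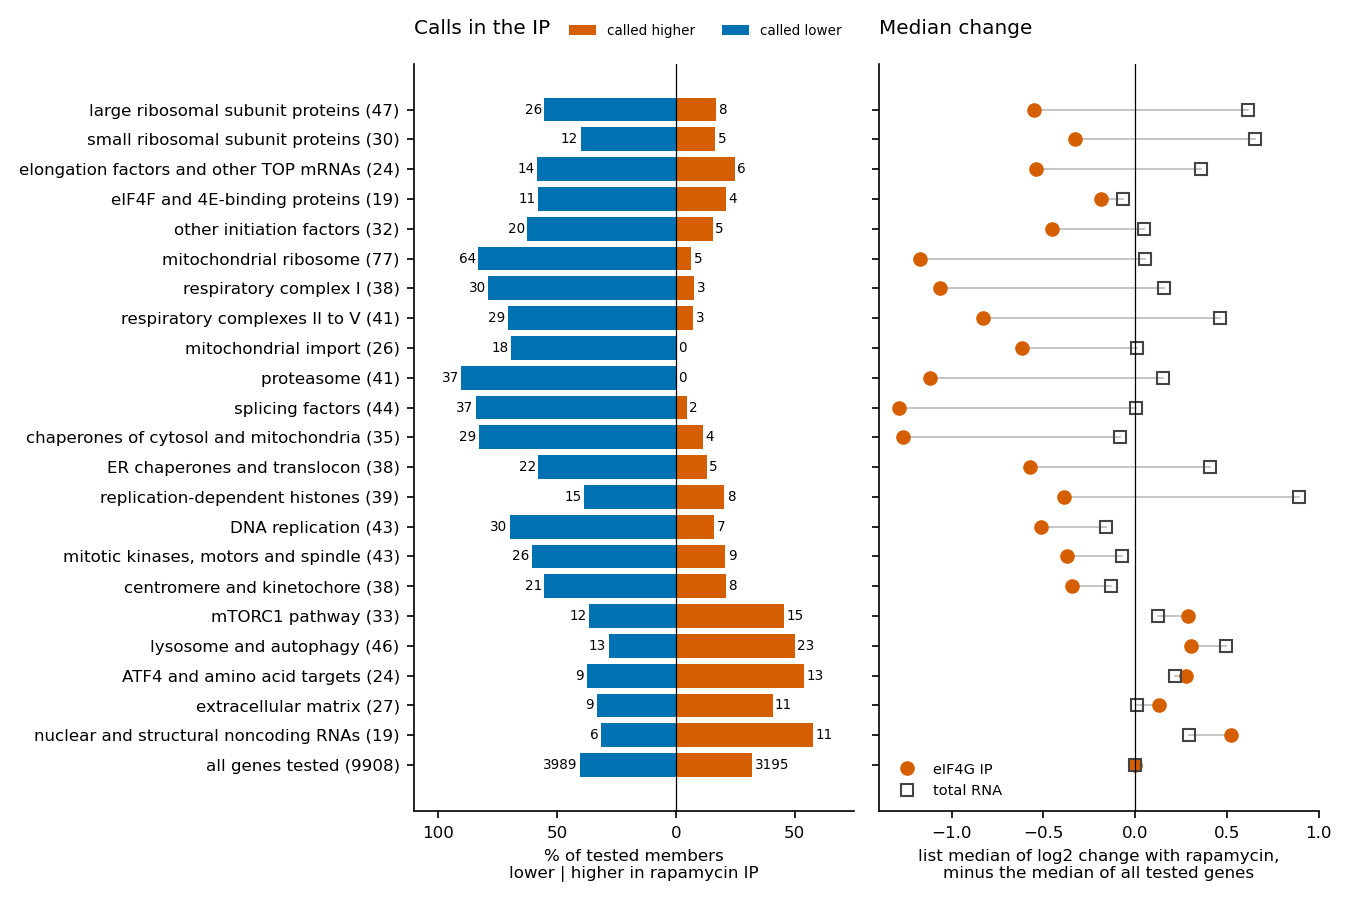
Left, the share of tested members of 22 gene lists and of all genes called lower or higher in the rapamycin IP, with the number of genes at each bar and the number tested in parentheses. Right, the median log2 change of each list in the IP (filled) and total RNA (open squares) minus that of all tested genes, in which the splicing factors stood at -1.29 and 0.01.

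Mitochondrial mRNAs made in the nucleus fell together in the IP and did not do so in total RNA. Of 77 tested genes of the mitochondrial ribosome, 64 fell and 5 rose (relative median -1.17 in the IP and 0.06 in total RNA). Together the 78 members with a value, tested or not, summed to between 1882 and 2230 FPKM in the control IP and to 603 and 771 in the rapamycin IP. MRPL51, its most abundant member, measured 603, 557 and 447 FPKM in the control IP and 115 and 90.3 in the rapamycin IP. All controls were above both rapamycin libraries, and it changed by -2.69 ± 0.17 in the IP and -0.01 ± 0.18 in total RNA. MRPL39 fell by 2.51. Of 38 subunits of respiratory complex I, which oxidises NADH, 30 fell and 3 rose (-1.06 in the IP, 0.16 in total RNA). NDUFS5 measured 116, 96.0 and 92.3 FPKM in the control IP and 10.9 and 7.72 in the rapamycin IP. Its groups were far apart, with a change of -3.62 ± 0.18 (limma adjusted p = 2.51e-07), and NDUFB3 changed by -3.24 ± 0.12. Of 41 genes of complexes II to V, 29 fell and 3 rose (-0.83 in the IP, 0.46 in total RNA). CYCS, the electron carrier cytochrome c, fell by 2.81. Of 26 genes of mitochondrial import, 18 fell and 0 rose (-0.61), among them TOMM5 of the outer membrane (-2.95 ± 0.23) and TIMM17A of the inner membrane (-2.54 ± 0.13). These 4 medians stayed below 0 with every scaling tried. The genes encoded in mitochondrial DNA are not in the table.

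Genes of the proteasome, which degrades ubiquitinated proteins, had 37 falls and 0 rises among 41 tested, with a relative median of -1.12 in the IP and 0.15 in total RNA. PSMA4, of the core particle, measured 130, 138 and 130 FPKM in the control IP and 23.0 and 17.2 in the rapamycin IP. No libraries overlapped, and it changed by -2.98 ± 0.13 in the IP and -0.08 ± 0.14 in total RNA. PSMC2, an ATPase of the cap, fell by 2.46. PSMB4, the most abundant member, fell by 0.99 in the IP and rose by 0.86 ± 0.23 in total RNA, and quantile normalization turned its IP change to 0.06. Splicing factors had 37 falls and 2 rises among 44 tested (-1.29 in the IP, 0.01 in total RNA). SNRPD1, a Sm core protein, measured 43.2, 37.3 and 37.1 FPKM in the control IP and 3.40 and 2.72 in the rapamycin IP. These groups did not overlap, with a change of -3.58 ± 0.13. LSM3 fell by 3.44, and SRSF1, an SR protein, by 1.11, a call that quantile normalization ended (-0.07).

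Chaperones of the cytosol and mitochondria had 29 falls and 4 rises among 35 tested (-1.27 in the IP, -0.08 in total RNA). HSPA8, the constitutive Hsp70, measured 1037, 1179 and 1072 FPKM in the control IP and 331 and 300 in the rapamycin IP. It was lower in both rapamycin libraries than in any control, by -2.11 ± 0.19, and its co-chaperone DNAJA1 changed by -1.98 ± 0.11. HSF1, the transcription factor of the heat shock response, was one of the 4 that rose, from 1.04, 1.06 and 1.03 FPKM to 4.26 and 4.15 (1.15 ± 0.05) with no overlap. Chaperones and translocon genes of the endoplasmic reticulum had 22 falls and 5 rises among 38 tested in the IP (-0.57) but 23 rises and 0 falls in total RNA (0.41). Their relative IP median was 0.085 at a mean of at least 5 FPKM, where it is set against a median of -0.75. MANF, a secreted stress factor, measured 95.8, 83.1 and 84.4 FPKM in the control IP and 12.6 and 11.6 in the rapamycin IP. Its groups did not overlap, and it changed by -3.06 ± 0.11 in the IP and 0.43 ± 0.13 in total RNA. CALR, the lectin chaperone calreticulin, fell by 2.74 in the IP.

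Histone mRNAs, which end in a stem-loop in place of a poly(A) tail, had 15 falls and 8 rises among 39 tested in the IP and 22 rises and 1 fall in total RNA. Their relative medians were -0.39 in the IP, which quantile normalization turned to 0.34, and 0.89 in total RNA. HIST1H1E, a linker histone gene, measured 1448, 1290 and 1359 FPKM in the control IP and 471 and 436 in the rapamycin IP. It fell with no overlap by 1.90, and HIST1H2AJ by 2.87. HIST1H2BC, the most abundant, changed by -1.17 ± 0.21 in the IP and by 1.30 ± 0.23 in total RNA. HIST1H2BA, the testis H2B gene, rose in both fractions (3.14 ± 0.22 and 2.84 ± 0.24), from 1.25, 0.399 and 1.13 FPKM in the control IP to 22.1 and 15.1.

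Of 43 mitotic kinases, motors and spindle genes, 26 fell and 9 rose in the IP and 8 fell and 5 rose in total RNA. Of 38 centromere and kinetochore genes 21 fell and 8 rose in the IP, and 8 fell and 1 rose in total RNA. Of 43 DNA replication genes 30 fell and 7 rose in the IP, and 13 fell and 3 rose in total RNA. The difference between fractions was called lower in the IP for 25, 20 and 23 of these genes, where 37.9% of all genes were. Their relative medians in the IP were -0.37, -0.34 and -0.51. That of the centromere genes was 0.29 at a mean of at least 5 FPKM, where it is set against a median of -0.75. MAD2L1, a spindle checkpoint protein, measured 63.1, 65.8 and 53.3 FPKM in the control IP and 7.75 and 5.57 in the rapamycin IP. The groups did not overlap and the change was -3.31 ± 0.14. PTTG1, the securin, fell by 2.35, ZWINT of the kinetochore by 2.42, the sliding clamp PCNA by 2.31 and the licensing inhibitor GMNN by 1.89. Homologous recombination genes had 8 rises and 6 falls among 20 tested (0.01). Of 18 mRNAs known to respond to eIF4E levels, 11 fell and 5 rose (61.1% and 27.8%, relative median -0.43, turned to 0.06 by quantile normalization). Relative to total RNA 8 of them were lower in the IP and 2 higher (44.4% and 11.1%, against 37.9% and 24.5% of all genes). The relative median of that difference was -0.07. CCNE1, the G1 cyclin E, fell by 1.67 and ODC1, the enzyme that starts polyamine synthesis, by 1.48. CCND1, cyclin D1, changed by -0.89 ± 0.11 in the IP, lost with quantile normalization (-0.16), and by -0.54 ± 0.12 in total RNA. Its difference between fractions did not pass (-0.35 ± 0.16, limma adjusted p = 0.0895). MYC measured 19.5, 20.8 and 21.1 FPKM in the control IP and 17.2 and 17.3 in the rapamycin IP. Its groups did not overlap, but its call of -0.53 ± 0.09 was lost without scaling (-0.24) and with factors over genes with a mean of at least 1 FPKM (-0.20), and quantile normalization turned it to 0.28. In the list of MYC and immediate early genes 11 of 22 fell and 6 rose (-0.25, turned to 0.34 by quantile normalization), and EGR1 rose by 1.32 ± 0.09. Targets of p53 had 18 falls and 6 rises among 27 tested (66.7% and 22.2%, relative median -0.32), with GADD45A at -2.27 ± 0.15. Of 9 tested genes of CDK12 and the polymerase II kinases 3 rose and 4 fell (33.3% and 44.4%), near the shares of all genes. Their relative median of 0.09 turned with quantile normalization (-0.06), with the length trend removed (-0.15) and without rapamycin IP replicate 2 (-0.01). CCNH, a cyclin of TFIIH, fell by 1.49. CDK12, 0.497, 0.532 and 0.535 FPKM in the control IP, was at 0.916 and 0.953 in the rapamycin IP (0.22 ± 0.05), a call that quantile normalization ended (0.11).

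Some abundant metabolic mRNAs rose in both fractions. GAPDH, of glycolysis, measured 164, 158 and 158 FPKM in the control IP and 527 and 397 in the rapamycin IP. Both rapamycin libraries were above all controls, by 1.20 ± 0.14 in the IP and 1.23 ± 0.15 in total RNA, and the difference between fractions was -0.03 ± 0.21 (limma adjusted p = 0.901). FTL, the ferritin light chain, rose by 1.51 ± 0.22 in the IP and 1.31 ± 0.24 in total RNA. TXNIP, an inhibitor of thioredoxin, rose by 2.66 ± 0.13 and 2.05 ± 0.14. PGK1, another glycolytic enzyme, and SOD1, a superoxide dismutase, fell in the IP by 1.54 and 2.99, and neither passed in total RNA (0.32 and 0.34). Glycolysis had 7 rises and 6 falls among 19 tested (36.8% and 31.6%, relative median 0.02). The antioxidant list had 5 rises and 13 falls among 32 (15.6% and 40.6%, relative median -0.21, turned to 0.12 by quantile normalization). Cholesterol synthesis had 11 rises and 12 falls among 28 (39.3% and 42.9%), with EBP, an enzyme of the late pathway, at -2.14 ± 0.09. Of all genes 32.2% rose and 40.3% fell.

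Cytoskeleton and matrix mRNAs moved in both directions. FLNA, the actin crosslinker filamin A, measured 7.90, 7.83 and 8.58 FPKM in the control IP and 62.9 and 67.5 in the rapamycin IP. No libraries overlapped, and it rose by 2.57 ± 0.10 in the IP and 0.82 ± 0.11 in total RNA. COL1A1, a collagen, rose by 1.68 ± 0.10 and fibronectin FN1 by 1.41 ± 0.09. TMSB10, a small actin-binding thymosin, measured 1835, 1647 and 1659 FPKM in the control IP and 616 and 424 in the rapamycin IP, a fall of 2.06 with no overlap. Actin, ACTB, changed by -0.77 ± 0.11, which quantile normalization turned to 0.23, and VIM by -0.76 ± 0.11, turned to 0.11. TNNT1, the slow troponin T and the only striated muscle marker tested, fell by 3.31, from 41.5, 41.4 and 38.2 FPKM to 4.42 and 3.71. KRT18, an epithelial keratin, changed by -0.90 ± 0.13, turned to 0.14. Extracellular matrix genes had 11 rises and 9 falls among 27 tested (40.7% and 33.3%, against 32.2% and 40.3% of all genes, relative median 0.13). Cytoskeleton genes had 10 rises and 22 falls among 39 (25.6% and 56.4%, relative median -0.56, turned to 0.06 by quantile normalization).

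Nuclear and structural noncoding RNAs had 11 rises and 6 falls among 19 tested (relative median 0.52 in the IP and 0.29 in total RNA). They did not rise as a class. Of 7 tested genes annotated as snRNA, 0 rose and 4 fell in the IP (57.1%, against 40.3% of all genes), around a relative median of -1.76. MALAT1, a long RNA retained in nuclear speckles, measured 98.2, 105 and 119 FPKM in the control IP and 273 and 336 in the rapamycin IP. Both rapamycin libraries lay above all controls, and it rose by 1.18 ± 0.11 in the IP against -0.17 ± 0.13 in total RNA. NEAT1, the scaffold of paraspeckles, rose by 1.68 ± 0.22 and TUG1 by 2.01 ± 0.16. RPPH1, the RNA of ribonuclease P, measured 1081, 817 and 980 FPKM in the control IP and 22218 and 18439 in the rapamycin IP, a rise of 4.09 ± 0.14 with no overlap, beside 1.15 ± 0.15 in total RNA. SCARNA7, a Cajal body RNA that lies in another gene, fell by 3.18. Among noncoding hosts of small nucleolar RNAs 5 of 23 rose and 9 fell (21.7% and 39.1%, against 32.2% and 40.3% of all genes). SNHG6 among them changed by -3.31 ± 0.26. SNORD54, which lies within a ribosomal protein gene, fell by 2.54 in the IP, a call lost without rapamycin IP replicate 2 (-2.35), with quantile normalization (-1.54) and with a pseudocount of 0.1 (-2.69).

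The largest rises were in a few loci. MYO1D, an unconventional myosin, measured 4.15, 3.48 and 1.26 FPKM in the control IP and 468 and 537 in the rapamycin IP, a rise of 6.80 ± 0.41 (limma adjusted p = 6.33e-07). Its reads made up 5.50% and 6.31% of the tags with rapamycin and at most 0.0487% in the control IP. UNC45B, a myosin chaperone, went from 0.389, 0.133 and 1.78 to 51.1 and 65.6 FPKM (4.97 ± 0.44), and in total RNA it stood at 10.0 and 12.5 in control and 12.7 and 15.5 in rapamycin cells. The other large rises were short precursor loci that hold few reads in the control IP, where MIR3687-1 and MIR3687-2 were listed at 0, 1.45 and 0 FPKM each, MIR3064 at 0, 0.669 and 0, and MIR3648-1 and MIR3648-2 at 0, 0 and 0.305 each. In the rapamycin IP MIR3687-1 and MIR3687-2 stood at 203 and 306 FPKM each, MIR3064 at 38.6 and 32.6, MIR3648-1 at 19.6 and 43 and MIR3648-2 at 19.4 and 42.4. MIR3687-1 and MIR3687-2 are listed at the same interval, so they are the same locus under both symbols and not separate rises. MIR3648-1 lies close to it on the same strand, and MIR3648-2 has nearly the values of MIR3648-1. MIR6087 went from 30.7, 9.97 and 88.8 to 2032 and 1410 FPKM, and MIR663A from 4.22, 7.09 and 1.78 to 164 and 317. In total RNA MIR6087 stood at 181 and 164 FPKM in control and 101 and 191 in rapamycin cells. MIR663A stood there at 186 and 138 in control and 140 and 164 in rapamycin cells. MIR3687-1 rose in total RNA from 15.6 and 17.0 to 169 and 143 FPKM, and MIR3064 from 8.46 and 5.69 to 81.8 and 71.9. MIR3648-1 did not pass there (11.7 and 11.4 in control, 21.1 and 20.1 in rapamycin cells). The reads come from RNA libraries of whole gene bodies and say nothing of mature microRNAs.

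**Figure D3:**
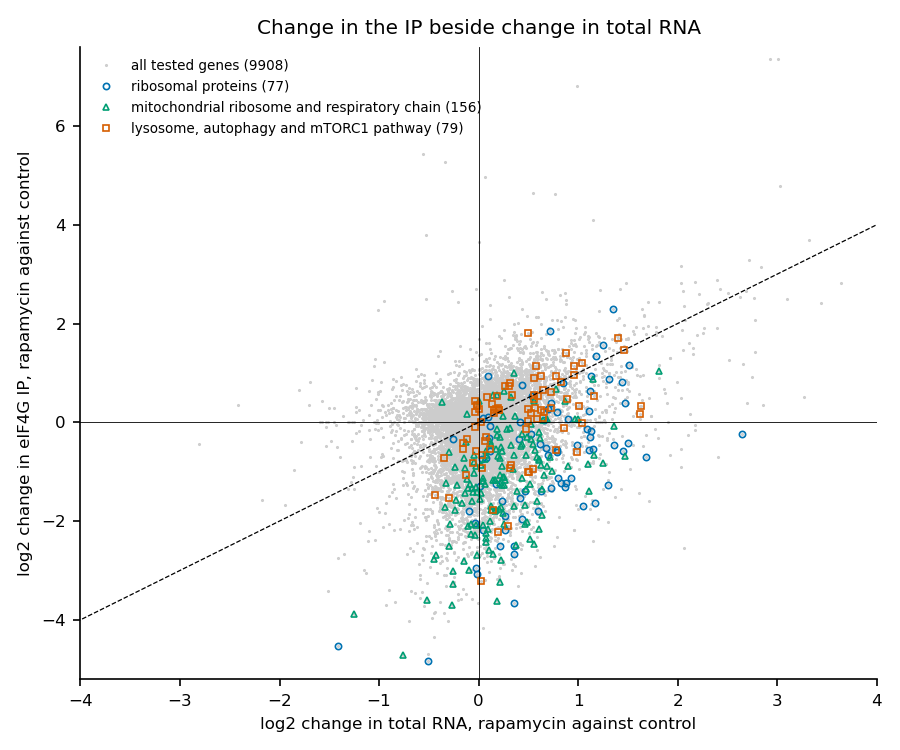
Log2 change with rapamycin in the IP (vertical axis) and in total RNA (horizontal axis) for 9908 tested genes, with 3 groups of lists marked and the dashed line at equal change. Below the line lie 69 of 77 ribosomal protein genes, 148 of 156 genes of the mitochondrial ribosome and respiratory chain, 50 of 79 lysosome, autophagy and mTORC1 genes and 5690 of all 9908.

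The change in the IP was then tested against the change in total RNA, as the difference of the rapamycin effect between the fractions. By limma 6176 genes (62.3%) differed, 3753 lower in the IP than their total RNA change gives (37.9%) and 2423 higher (24.5%). Quantile normalization gave 2665 lower and 2887 higher, and removal of the length trend 2741 and 3452. The calls in total RNA ranged from 1759, without total rapamycin replicate 1, to 5815, with library weights (2418, 2218 and 2314 without total control replicate 1, total control replicate 2 and total rapamycin replicate 2), and the shares that follow rest on the 3632 calls with all libraries. Of the 3989 genes that fell in the IP, 2973 (74.5%) were not called in total RNA, 636 (15.9%) fell and 380 (9.53%) rose there. Of the 3195 that rose in the IP, 1147 (35.9%) also rose in total RNA, which is 56.7% of the 2023 genes that rose in total RNA. The difference itself was called lower for 3300 (82.7%) of the genes that fell in the IP. It was called higher for 1969 (61.6%) of those that rose. Total RNA alone had 3632 calls (36.7%), of which 278 were rises (2.81%) and 60 falls (0.606%) of at least 2-fold. The authors' deposited table marks 3285 genes under the heading "mTORc Binding?", all of them below -0.5 in its relative IP difference (log2), with all others above it. That difference comes from the same FPKM as the calls here, so the overlap that follows was largely set in advance and is no separate support. Of the 3137 that were tested here, 2890 (92.1%) were called lower relative to total RNA and 0 higher, and 2670 were called lower and 29 higher in the IP itself. A further 863 genes called lower relative to total RNA are not marked, so 77.0% of those calls are.

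With rapamycin the IP came close to total RNA. The log2 ratio of IP over total RNA had an SD over the 9908 genes of 1.07 in control cells, 1.15 in CDK12 siRNA cells and 0.458 in rapamycin cells. The ratio was at least 2-fold in either direction for 3209 genes (32.4%) in control cells and for 534 (5.39%) in rapamycin cells. By limma 5145 genes (51.9%) differed between IP and total RNA with rapamycin, 3850 higher (38.9%) and 1295 lower (13.1%) in the IP, against 7972 (80.5%) in control cells, 5355 higher (54.0%) and 2617 lower (26.4%). The count with rapamycin became 2979 without total rapamycin replicate 2 and 2992 without IP rapamycin replicate 1. Genes were also divided into 10 groups of equal size by the same ratio in CDK12 siRNA cells, which shares no library with the comparison. The CDK12 siRNA IP libraries still correlated with the control IP libraries by 0.946 to 0.965 and share their date code. The steps between groups are therefore not evidence separate from the smaller SD with rapamycin. In the group with the lowest ratio the median IP change was 0.28, with 62.0% of genes called higher and 4.04% lower. In the group with the highest ratio it was -1.22, with 5.95% called higher and 75.1% lower, and the medians fell at every step between them. Total RNA moved the other way, from -0.26 in the lowest to 0.38 in the highest group. Across the 9908 genes, which are not independent, the ratio and the IP change had a Pearson correlation of -0.52 and a Spearman correlation of -0.52.

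**Figure D4:**
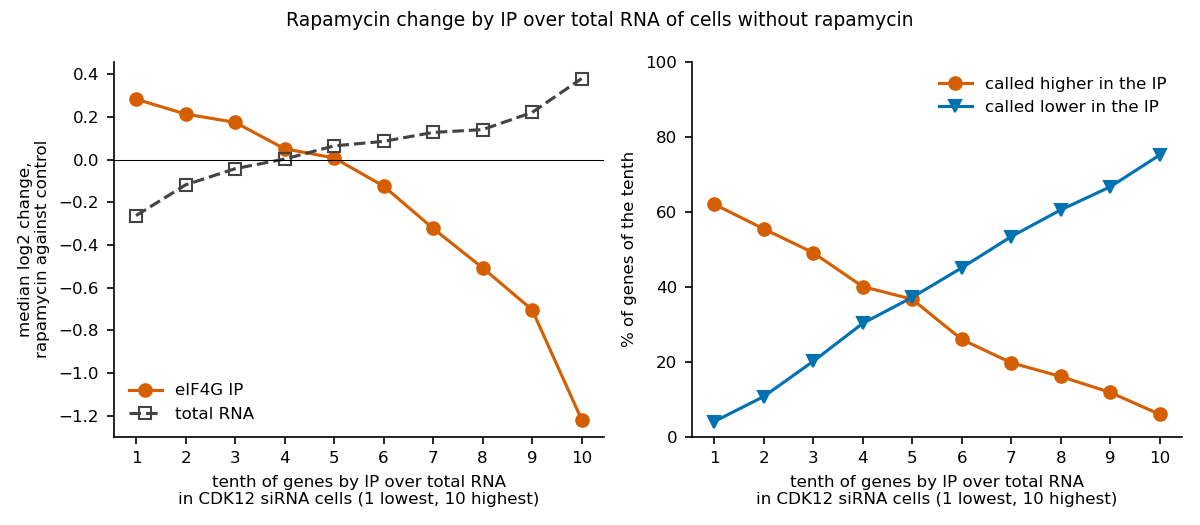
Left, median log2 change with rapamycin in both fractions for 10 equal groups of the tested genes ordered by IP over total RNA in CDK12 siRNA cells. Right, the share of each group called higher or lower in the IP, with 62.0% higher in the first and 75.1% lower in the last.

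Gene-body length, which sets how much intron a gene's value covers, moved with these changes. Among 532 genes of up to 300 bp, 26.3% rose and 5.08% fell in the IP. Among 2452 genes of 20000 to 50000 bp, 48.5% fell and 29.7% rose. Among 506 genes of 100000 to 200000 bp, 55.7% rose and 19.8% fell, and of 26 genes over 500000 bp 16 rose and 0 fell. Relative medians were -0.16 for genes of 300 to 2000 bp and 0.23 for genes over 500000 bp in the IP, and 0.23 and -0.41 in total RNA. With the length trend removed the IP median of the longest genes became -0.28, and quantile normalization turned that of the genes of 300 to 2000 bp to 0.07. Genes over 100000 bp took 12.3% to 13.1% of the tags summed over all genes in the control IP, 24.1% and 29.3% in the rapamycin IP (19.4% and 24.0% without MYO1D), 39.3% and 40.1% in control total RNA and 29.8% and 31.7% in rapamycin total RNA. That sum came to 96.4% to 97.4% of the estimated library size in the control IP and to 93.3% and 91.4% in the rapamycin IP. Tags in the 8219 genes that overlap another may enter it more than once, so it is not the share of tags within gene bodies. The part of intron reads in the changes was not tested.

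**Figure D5:**
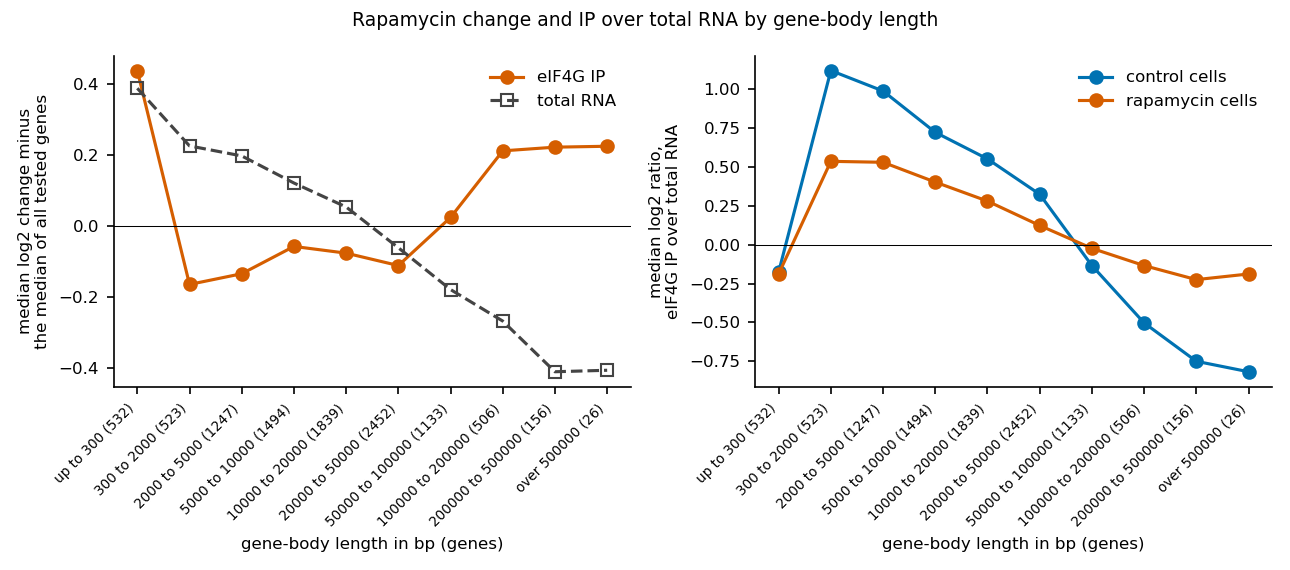
Left, median log2 change with rapamycin by gene-body length (number of genes in parentheses), minus the median of all tested genes. Right, median log2 ratio of IP over total RNA, which ran from 1.12 at 300 to 2000 bp to -0.82 over 500000 bp in control cells and from 0.54 to -0.19 in rapamycin cells.

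The rapamycin IP was last set directly against the IP of CDK12 siRNA cells. The control levels do not enter this contrast, but the control libraries still enter the scaling and the shared estimate of spread. By limma 6643 genes (67.0%) differed, 2874 higher (29.0%) and 3769 lower (38.0%) with rapamycin. With the compared groups alone 4248 did, and with library weights 4914. The mitochondrial ribosome was lower with rapamycin in 61 of 77 genes, complex I in 31 of 38, the proteasome in 34 of 41 and splicing factors in 31 of 44. MRPL51 measured 364 and 379 FPKM in the CDK12 siRNA IP and was lower by -1.99 ± 0.18 in the rapamycin IP. Histones went the other way, with 28 of 39 higher and 0 lower with rapamycin, as did mitotic genes, with 30 of 43 higher and 5 lower. Both lists stood below the control IP after CDK12 siRNA, and less far below it with rapamycin. Histones, tested or not, summed to 3602 and 5879 FPKM in the CDK12 siRNA IP. They summed to 11752 to 15332 in the control IP and 7963 and 10298.5 in the rapamycin IP. Mitotic genes summed to 235 and 256, 548 to 569, and 304 and 361 FPKM in these groups. MYO1D, at 29.1 and 69.6 FPKM after CDK12 siRNA, was higher with rapamycin by 3.32 ± 0.45 (limma adjusted p = 0.00015). The CDK12 siRNA libraries share the date code of the controls, so here too the date and the drug cannot be told apart.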

How the data were processed

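RNA of eIF4G immunoprecipitates and total RNA of U2OS cells was sequenced in 13 libraries, with 3 control, 2 CDK12 siRNA and 2 rapamycin IP libraries and 2 total RNA libraries of each. The deposited FPKM values were made by the authors with HOMER's analyzeRepeats on hg19 over whole gene bodies, per the file headers. Alignment tools listed, per the submitters' processing notes, are STAR 2.4.0k and FastQC. The deposited log2 columns hold the authors' means and differences of log2(FPKM + 1). No source used here states read filters, strand or annotation release. Of the rows, 3 emptied lines were left out, 28 symbols turned into dates were repaired, and 841 genes are listed with several copies.

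Genes with at least 1 FPKM in at least 2 libraries were kept. FPKM were divided by median-ratio factors (0.869 to 1.23), a pseudocount of 1 was added, and 6 groups were fitted in 1 model with limma (version 3.58.1), moderated with a trend on the mean (7 residual degrees of freedom, a median of 9.22 after moderation) in R 4.3.3. P-values were Benjamini-Hochberg adjusted over all genes in each of 6 contrasts at 0.05. The code was tested on simulated data. Tables and figures used Python 3.11.15, pandas 2.3.3, numpy 2.4.6 and matplotlib 3.10.9. Transcript starts came from RefSeq (GRCh38.p14).

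Genes in the text were taken from those a rule names, which are a list of 26 genes of the pathway and the study, the 10 largest rises and falls and the 5 largest of the difference between fractions (adjusted p under 0.05, a group mean of at least 5 FPKM, rapamycin libraries on one side of all controls), and of each list the 3 smallest p-values and the most abundant member. RPLP0, RPLP1 and RPS16 fall outside it. The members and lists were chosen with earlier results of these data known. Alternatives were other scalings, filters, pseudocounts, library weights, the compared groups alone, removal of the length trend, a replicate block and leaving out each library.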

Additional observations from a re-analysis of the deposited data

Results flagged for a closer look

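The rapamycin effect differed between the IP and total RNA for 6176 genes by the interaction term of limma. For the genes named above, the differences are given as IP change minus total RNA change (log2). Differences of 3 or more below 0 were those of SNORD54 -4.61, RPL26 -4.32, DBI -4.20, RPL36AL -4.20, RPL23 -4.02, UQCRB -3.96, KLF17 -3.89, NDUFS5 -3.81, SRP19 -3.72, SNHG6 -3.71, SNRPD1 -3.52, MANF -3.48, SUB1 -3.48, NDUFB3 -3.45, SOD1 -3.33, PAGE2 -3.33, CTSL -3.23, TOMM5 -3.16, RPS25 -3.12, TNNT1 -3.06, RPS6 -3.03.

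Further genes lay between -3 and -2: MAD2L1 -2.98, RPL11 -2.92, PSMA4 -2.90, LSM3 -2.87, RPS3 -2.86, CALR -2.79, RPS24 -2.73, MRPL51 -2.67, CYCS -2.67, MRPS17 -2.62, TIMM17A -2.60, SCARNA7 -2.59, PSMC2 -2.50, HIST1H2BC -2.47, EIF3E -2.38, PTTG1 -2.36, ZWINT -2.28, HIST1H2AJ -2.27, PCNA -2.26, MRPL39 -2.22. Others lay between -2 and -1: BTF3 -1.99, HIST1H1E -1.97, DNAJA1 -1.92, EEF1A1 -1.89, PGK1 -1.85, PSMB4 -1.85, EIF4E2 -1.84, GADD45A -1.84, TMSB10 -1.82, EBP -1.80, HSPA8 -1.78, ATF4 -1.78, PAIP2 -1.67, EIF4A1 -1.50, ODC1 -1.49, EIF2S1 -1.46, CCNH -1.44, CCNE1 -1.43, GMNN -1.38, KRT18 -1.22, TARS -1.19, SRSF1 -1.07, FKBP4 -1.03. Smaller negative differences were those of VIM -0.99, TPT1 -0.84, ACTB -0.72, RRAGA -0.69, MYC -0.46, FKBP1A -0.45, EIF4E -0.42, RPS6KB1 -0.39.

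Positive differences under 1 were those of AARS 0.23, ATG2A 0.31, EIF4EBP2 0.31, MTOR 0.42, FLCN 0.52, EIF4G3 0.52, NPC1 0.56, CDK12 0.59, TXNIP 0.61, EEF2 0.78, RPLP0 0.95. Differences of 1 or more were those of HSF1 1.00, EGR1 1.10, RPLP1 1.14, NEAT1 1.17, COL1A1 1.32, MALAT1 1.34, SLC1A5 1.36, PHGDH 1.37, TUG1 1.61, FLNA 1.75, MIR3064 1.75, RPPH1 2.94, MIR3648-2 3.85, MIR3648-1 4.09, MIR3687-2 4.35, MIR3687-1 4.44, UNC45B 4.91, MIR663A 5.60, MYO1D 5.82, MIR6087 6.0. The last of these are microRNA loci and the MYO1D and UNC45B genes, whose values rest on 2 rapamycin IP libraries of a date code of their own. MIR3687-1 and MIR3687-2 are the same locus listed under both symbols. The difference was tested for every gene, and its cause was not tested.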

How the results depend on the processing

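The 7184 calls of the IP comparison became 1716 among the genes with a mean of at least 5 FPKM, where fewer genes were tested, and 6319 to 6898 without one library. The other comparisons moved as follows. Total RNA had 6262 calls without a filter, 795 at a mean of at least 5 FPKM, 5815 with library weights and 1759 to 2418 without one library, the lowest without total rapamycin replicate 1, then 2218 without total control replicate 2, 2314 without total rapamycin replicate 2 and 2418 without total control replicate 1. The difference between fractions had 9373 and 1646 calls under these filters and 5253 to 6015 without one library. Rapamycin IP against CDK12 siRNA IP had 1631 calls at a mean of at least 5 FPKM, 4248 with the compared groups alone and 5610 to 6681 without one library. Rapamycin IP against total RNA had 1617 and 2979 to 5107, with 2992 without IP rapamycin replicate 1 and 2979 without total rapamycin replicate 2, and control IP against total RNA had 13940 without a filter, 1973 at a mean of at least 5 FPKM and 7485 to 7826 without one library.

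Scaling moved the split of higher and lower calls. In total RNA it was 4160 and 901 without scaling, 2594 and 2769 with quantile normalization and 1629 and 2883 with factors over genes with a mean of at least 1 FPKM, an alternative chosen after seeing the data, as was the restriction to genes over 300 bp in 1 copy. For the difference it was 2887 and 2665 with quantile normalization, 3452 and 2741 with the length trend removed and 3949 and 2332 with those factors. Against the CDK12 siRNA IP it was 3664 and 3061 with the length trend removed and 4009 and 2544 with those factors. With the replicate number as a block the IP comparison had 7111 calls and total RNA 3651, so the block changed no count by over 1.5 times. Same-numbered control and rapamycin IP libraries correlated by 0.078 and 0.0607 in their deviations, and the numbers were not taken to pair them.

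Directions turned with quantile normalization for EIF4G1 (0.58), PABPC1 (0.14), TPT1 (0.28), PSMB4 (0.061), MYC (0.28), ACTB (0.23), VIM (0.11) and KRT18 (0.14), and with the length trend removed for EIF4G3 (-0.0866). With quantile normalization, the relative medians that turned were eIF4F and 4E-binding proteins 0.062, small ribosomal subunit proteins 0.41, elongation factors and TOP mRNAs 0.17, replication-dependent histones 0.34, aminoacyl-tRNA synthetases 0.0399, eIF4E-sensitive mRNAs 0.058, cytoskeleton 0.064, cholesterol synthesis 0.069, antioxidant 0.12, MYC and immediate early 0.34, CDK12 and polymerase II kinases -0.062, all ribosomal proteins 0.13, genes of 300 to 2000 bp 0.0702, genes of 2000 to 5000 bp 0.087, genes of 5000 to 10000 bp 0.065. At a mean of at least 5 FPKM, where relative medians are set against a median of -0.75, those that turned were eIF4F and 4E-binding proteins 0.081, small ribosomal subunit proteins 0.37, elongation factors and TOP mRNAs 0.062, other initiation factors 0.21, replication-dependent histones 0.22, centromere and kinetochore 0.29, aminoacyl-tRNA synthetases 0.074, ER chaperones and translocon 0.085, antioxidant 0.49, MYC and immediate early 0.25, all ribosomal proteins 0.17, genes of 2000 to 5000 bp 0.058. With the length trend removed, the relative medians that turned were cholesterol synthesis 0.047, CDK12 and polymerase II kinases -0.15, genes of up to 300 bp -0.086, genes of 2000 to 5000 bp 0.042, genes of 5000 to 10000 bp 0.10, genes of 10000 to 20000 bp 0.072, genes of 200000 to 500000 bp -0.15, genes of over 500000 bp -0.28. Cholesterol synthesis also turned without scaling (0.0596), with the replicate block (0.0078), with factors over genes with a mean of at least 1 FPKM (0.0701) and over genes above 300 bp in 1 copy (0.011). Genes of 5000 to 10000 bp turned with those factors (0.00720). The CDK12 and polymerase II kinases ranged from -0.00734 to 0.17 without one library, the lowest without IP rapamycin replicate 2. The cause was not tested. Bins of protein length were planned and not run. Depth is given in tags estimated from the FPKM, and FPKM keep no counting error, so low genes have no interval here.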
